A study of Mus musculus with 13 samples.

Results

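Among 13 mouse aortas analysed by RNA sequencing, 3 carried high levels of transcripts of cardiac muscle: Ad-sham1, Ad-FAM3A6 and Ad-sham3. They were chosen by their measured values, as the 3 aortas of the 13 with the highest mean log2 CPM (read counts scaled to a common library size with TMM factors) of Myh6 and Myl7. Because the libraries were selected on their own counts, the comparison of these 3 with the other 10 is a description and carries no test. The virus label, 6 Ad-sham and 7 Ad-FAM3A aortas, did not enter the choice and was tested. All mice were ApoE-/-, and from an age of 10 weeks they were infused with angiotensin II (AngII) at 1000 ng/kg/min for 28 days from a pump under the skin, a model of aortic aneurysm. Ad-FAM3A mice received an adenovirus in which the EF1A promoter drove mouse Fam3A with a FLAG tag and mCherry, and Ad-sham mice the same vector without Fam3A, in 5 injections into the tail vein. The mice were killed by puncture of the heart and the entire aorta was taken. The study calls the sequenced samples aortic tissue and also aneurysm tissue. Which part of the aorta gave the RNA, and how far it was cleared of neighbouring tissue, is not given in the sources used here. The promoter is active in many cell types, the virus was given to the whole animal, the mice could be male or female with the sex of each not given, and the tissue is labelled as aorta. Each aorta was 1 library with 14481179 to 19797407 counts on genes. A gene with no count in a library could therefore stand at up to 0.14 to 0.22 CPM, the worth of 3 counts, and this limit covers counting error only.

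Myh6 encodes the alpha myosin heavy chain, the motor of the thick filament in the adult mouse heart, and Myl7 the regulatory light chain of atrial myosin. The heart muscle cell builds its sarcomeres from cardiac isoforms of myosin, actin, troponin and myosin-binding protein, and atria and ventricles differ in several of them: atrial muscle carries Myl7, Myl4, sarcolipin and atrial natriuretic peptide, and ventricular muscle carries Myl2 and Myl3. Pacemaker and conduction cells add ion channels such as Hcn4 and transcription factors such as Shox2, Isl1 and Tbx3. In the mouse, cardiac muscle forms the heart and a coat on the large veins that enter it, whereas the aortic media is smooth muscle.

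The promoters of both genes of the score are shown, with those of Actc1 and Mybpc3, sarcomere genes that were also higher in the 3 aortas, and of Nppa, a classical atrial gene that was close to 0 in all 13. Each window holds 250 bases before the start of the gene in RefSeq on GRCm38 and 50 bases from the start on, read 5′ to 3′ on the strand of the gene. Myh6 is at chr14:54966558-54966857 (minus strand), Myl7 at chr11:5898733-5899032 (minus), Actc1 at chr2:114052826-114053125 (minus), Mybpc3 at chr2:91117894-91118193 (plus) and Nppa at chr4:148000472-148000771 (plus). The counted genes Myh6 and Actc1 start farther upstream in the files than in RefSeq, so that their windows lie within the counted genes. Distances are given from the RefSeq start. Capitals mark matches, on either strand, to TATAAA, to the GATA motif AGATAA, to the T-box core AGGTGT, to the MEF2 motif and to the CArG box, the site of serum response factor.
Myh6 promoter: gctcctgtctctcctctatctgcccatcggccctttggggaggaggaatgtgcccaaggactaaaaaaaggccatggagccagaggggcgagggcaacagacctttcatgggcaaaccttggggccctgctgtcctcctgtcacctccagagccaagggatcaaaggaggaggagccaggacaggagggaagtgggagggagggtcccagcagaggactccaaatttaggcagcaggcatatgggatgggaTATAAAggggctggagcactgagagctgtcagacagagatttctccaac
Myl7 promoter: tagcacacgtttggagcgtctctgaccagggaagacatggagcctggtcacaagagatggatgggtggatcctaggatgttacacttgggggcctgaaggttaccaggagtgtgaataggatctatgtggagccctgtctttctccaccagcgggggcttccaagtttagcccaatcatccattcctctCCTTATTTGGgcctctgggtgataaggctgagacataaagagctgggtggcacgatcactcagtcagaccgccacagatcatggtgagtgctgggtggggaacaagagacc
Actc1 promoter: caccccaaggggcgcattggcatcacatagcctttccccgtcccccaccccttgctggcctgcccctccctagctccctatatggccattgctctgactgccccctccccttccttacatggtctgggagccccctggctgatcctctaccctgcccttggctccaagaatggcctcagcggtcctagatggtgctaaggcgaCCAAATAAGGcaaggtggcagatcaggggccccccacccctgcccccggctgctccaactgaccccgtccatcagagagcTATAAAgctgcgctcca
Mybpc3 promoter: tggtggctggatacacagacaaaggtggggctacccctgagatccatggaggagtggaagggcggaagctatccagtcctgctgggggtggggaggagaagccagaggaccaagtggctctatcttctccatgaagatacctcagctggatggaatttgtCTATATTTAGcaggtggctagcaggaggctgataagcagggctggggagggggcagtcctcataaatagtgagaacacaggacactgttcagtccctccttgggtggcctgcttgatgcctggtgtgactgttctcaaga
Nppa promoter: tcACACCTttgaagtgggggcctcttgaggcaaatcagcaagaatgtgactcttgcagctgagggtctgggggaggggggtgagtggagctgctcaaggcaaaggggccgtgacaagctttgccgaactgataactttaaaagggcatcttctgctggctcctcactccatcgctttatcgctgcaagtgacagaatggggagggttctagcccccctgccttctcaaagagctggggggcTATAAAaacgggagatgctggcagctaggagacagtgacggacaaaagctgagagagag
The Myl7 window held a CArG box that starts 61 bases before the start, and the Actc1 window one that starts 47 bases before it. The Mybpc3 window held a MEF2 match starting 90 bases before it. TATAAA began 1 base after the start in Myh6, 33 bases after it in Actc1 and 9 bases before it in Nppa, and Nppa also held AGGTGT read on the other strand. Of 32851 promoter windows of this length, 1.63% held a CArG box, 3.19% a MEF2 match, 13.6% TATAAA, 13.7% AGGTGT and 11.2% AGATAA. No AGATAA lay in these 5 windows, which says only that these letters are not there.

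The score, the mean log2 CPM of Myh6 and Myl7, was 5.44 in Ad-sham1, 5.09 in Ad-FAM3A6 and 3.75 in Ad-sham3. The first aorta outside the 3 was Ad-FAM3A2 at 1.49, and the other 9 lay between -2.13 and 0.08. Myh6 (ENSMUSG00000040752, chromosome 14, 54941921 to 54966927 of GRCm38) was at 103 CPM in Ad-sham1, 77.7 in Ad-FAM3A6 and 29.3 in Ad-sham3, and at 0.299 to 2.39 CPM in the other 10 (median 0.947). Myl7 (ENSMUSG00000020469, chromosome 11, 5896637 to 5898782) was at 18.1 CPM in Ad-sham1, 14.8 in Ad-FAM3A6 and 5.98 in Ad-sham3, and at 0 to 3.01 CPM in the other 10 (median 0.144), with no count in 4 of the 10. Both genes separated the same 3 aortas, as the values plotted by aorta show, and these values chose them. Myh6 and Myl7 together took 0.0114% of all counts in Ad-sham1 (95% exact binomial interval 0.0108 to 0.0119%), 0.0101% in Ad-FAM3A6 (0.00958 to 0.0106%) and 0.0036% in Ad-sham3 (0.00331 to 0.00391%). In the other 10 they took at most 0.000531%. Both transcripts were thus a small part of each library. In bulk tissue, fewer cells of a type and less RNA per cell cannot be told apart.

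**Figure D1:**
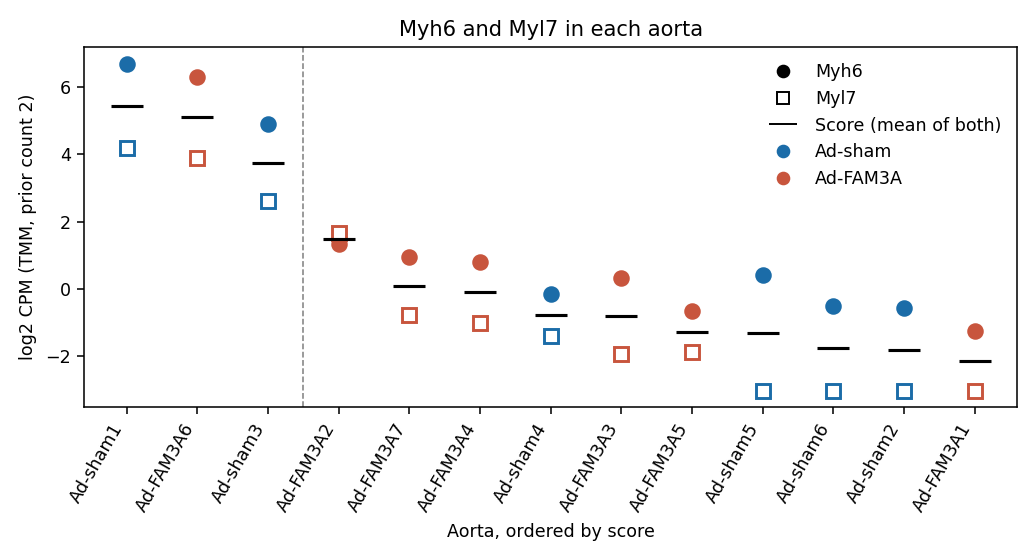
Myh6 (filled circles), Myl7 (open squares) and their mean (black bars) in log2 CPM for the 13 aortas, ordered by the mean and coloured by virus, with a dashed line after the 3 chosen aortas. The means of the 3 are 5.44, 5.09 and 3.75, and the next aorta is at 1.49.

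Myl7 made up 15.0% of the summed counts of Myh6 and Myl7 in Ad-sham1 (exact 95% interval 13.4 to 16.7%), 16% in Ad-FAM3A6 (14.2 to 17.9%) and 16.9% in Ad-sham3 (13.9 to 20.3%). In Ad-FAM3A2 it made up 55.7% (44.7 to 66.3%), from 39 counts of Myh6 and 49 of Myl7. It made up 20.5% in Ad-FAM3A7 (9.3 to 36.5%) and 18.75% in Ad-FAM3A4 (7.21 to 36.4%), from 39 and 32 counts of both genes. These shares come from the counts that chose the aortas and are given with no test, and the intervals cover the counting error of single libraries. Per kilobase of gene length, Myl7 stood at 201%, 217% and 232% of the level of Myh6 in Ad-sham1, Ad-FAM3A6 and Ad-sham3. Myh6 shares much of its sequence with Myh7 and overlaps the microRNA gene Mir208a and Gm49130, and how reads that map to several genes were counted is not given in the sources used here. The same 3 aortas ranked highest by Myh6 alone, by Myl7 alone and under each other scaling tried.

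Across genes, 4 of the 89 cardiac list genes that passed a filter on low counts were higher in each of the 3 aortas than in each of the other 10, among them Tnni3, Myl4 and Actc1. The filter kept 15811 genes by their counts within the virus groups and dropped 32 of the 121 genes on 10 cardiac lists, among them Sln, Mybphl and Mybpc3, which had few counts outside the 3 aortas. Of the 15810 genes kept besides Myh6, 52 were higher in all 3 (0.329%) and 628 were lower in all 3 (3.97%). With every gene that had a count, 15 of 121 cardiac list genes were higher in all 3, against 110 of 30780 genes (0.357%), and 13 were lower, against 645 (2.1%). Since the same libraries chose the 3 aortas, nothing is read from these shares. The median difference in mean log2 CPM, the 3 minus the 10, was 0.049 over the 89 cardiac genes and 0.0058 over all genes kept. With the DESeq2 size factors 82 genes were higher. The counts rested on single libraries: the number higher was 150 without Ad-sham1, 289 without Ad-sham3, 459 without Ad-FAM3A6, 88 without Ad-sham2 and 101 without Ad-FAM3A7, and the number lower was 1045 without Ad-sham1 and 1507 without Ad-sham3. Without Ad-sham3, the aorta with the lowest cardiac levels of the 3, 15 kept cardiac genes were higher. With fewer aortas to separate, more genes can meet this condition.

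**Figure D2:**
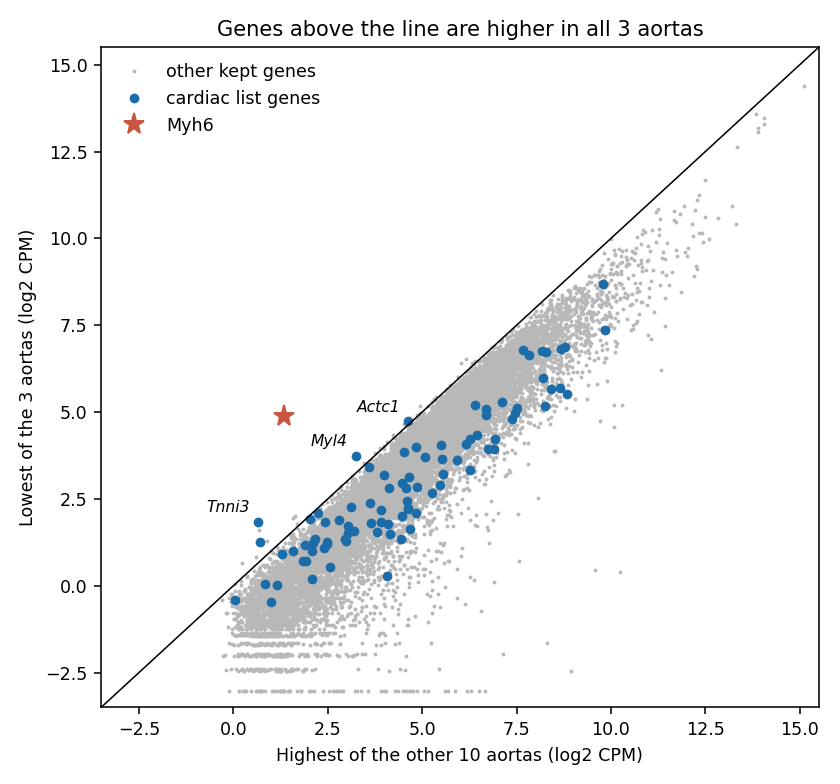
For each gene kept, the lowest log2 CPM of the 3 aortas (vertical axis) against the highest of the other 10 (horizontal axis), with cardiac list genes in blue, Myh6 as a star and the line of equality. Besides Myh6, 4 cardiac list genes lie above the line, and most of the 89 lie below it.

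Of the 14 atrial genes, 4 were higher in all 3 aortas, 2 were lower in all 3 and 8 overlapped, where 0.357% of all genes with a count were higher and 2.1% lower. The summed level of the list, most of it Dkk3, Gja5 and Nr2f2, was lower in the 3, at 264 to 316 CPM in the 3 and 344 to 585 CPM in the other 10 (median 542). Sln, sarcolipin, a small membrane protein that inhibits the calcium pump of the sarcoplasmic reticulum in atrial muscle, was at 16.1 CPM in Ad-sham1, 13.6 in Ad-FAM3A6 and 2.02 in Ad-sham3, and at 0 to 0.859 CPM in the other 10 (median 0.0688). It was high in Ad-sham1 and Ad-FAM3A6 and lower in Ad-sham3, and the groups did not overlap. Mybphl, a relative of myosin-binding protein C found in atrial muscle, was at 4.95 CPM in Ad-sham1, 4.53 in Ad-FAM3A6 and 0.756 in Ad-sham3, and had 2 counts in all of the other 10, both in Ad-FAM3A2. Myl4, the essential light chain of atrial myosin, was at 33.7 CPM in Ad-sham1, 30.03 in Ad-FAM3A6 and 13.2 in Ad-sham3, and at 1.62 to 9.33 CPM in the other 10 (median 3.15), with Ad-FAM3A2 the highest of the 10. Unlike Mybphl, Myl4 was thus detected in every aorta. Kcnj5, which encodes a subunit of the acetylcholine-activated potassium channel, was at 1.98, 1.39 and 0.63 CPM in the same order, and at 0 to 0.289 CPM elsewhere, with no count in 6 of the 10.

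Nppa, which encodes atrial natriuretic peptide, was close to 0 and overlapped through 1 count in Ad-sham3. Its counts were 6, 8 and 1 in Ad-sham1, Ad-FAM3A6 and Ad-sham3, and 2 in all of the other 10, which gave 0.396, 0.483 and 0.063 CPM against 0 to 0.125 CPM. Bmp10, a growth factor of atrial muscle, had no count in the 3 aortas and 1 count in the other 10. Kcnj3, the partner of Kcnj5 in the potassium channel, was at 7.33, 5.2 and 3.46 CPM but reached 14.8 CPM in Ad-FAM3A3, so it overlapped. Gja5, connexin 40, which also marks arterial endothelium, was lower in the 3 at 26.3, 18.4 and 19.5 CPM than in the other 10 at 37.1 to 122 (median 63.2) CPM. Dkk3, a secreted Wnt modulator, was lower as well, at 150.3, 117 and 177 CPM against 223 to 439 (median 364) CPM. Tbx5 and Nr2f2, transcription factors of atrial identity, overlapped, as did Kcna5 and Stard10.

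Of the 7 ventricular genes, 2 were higher in all 3 aortas, 1 was lower and 4 overlapped (of all genes, 0.357% higher and 2.1% lower). The summed level of the list, most of it Hey2, was lower in the 3, at 20.1 to 26.5 CPM in the 3 and 33.1 to 60.8 CPM in the other 10 (median 37.8). Myl2, the regulatory light chain of ventricular myosin and the counterpart of Myl7, had no count in any of the 3 aortas, which allows up to 0.198 CPM in Ad-sham1, 0.181 in Ad-FAM3A6 and 0.189 in Ad-sham3. It reached 0.43 CPM in Ad-FAM3A2 and was at 0 to 0.43 CPM in the other 10 (median 0.125). Irx4, a transcription factor of ventricular muscle, also had no count in the 3, nor in 9 of the other 10, and 7 counts in Ad-FAM3A4. Myh7, the beta myosin heavy chain of ventricle and slow skeletal muscle, was at 0.924 CPM in Ad-sham1, 1.27 in Ad-FAM3A6 and 0.315 in Ad-sham3, and at 0 to 1.33 CPM in the other 10 (median 0.0838), and the groups overlapped through Ad-FAM3A7. Per kilobase, Myh7 stood at 0.702%, 1.27% and 0.838% of Myh6 in the 3 aortas.

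Myl3, the essential light chain of ventricular myosin, was at 3.76 CPM in Ad-sham1, 2.36 in Ad-FAM3A6 and 1.45 in Ad-sham3, and at 0 to 1.03 CPM in the other 10 (median 0.407). Mylk3, the cardiac myosin light chain kinase, was at 4.09 CPM in Ad-sham1, 3.57 in Ad-FAM3A6 and 1.2 in Ad-sham3, and at 0 to 0.658 CPM in the other 10 (median 0.356). Neither gene overlapped between the groups, and both are also found outside the ventricle. Hey2, a Notch target of ventricular muscle that arterial cells also carry, was lower in the 3 at 17.4, 12.1 and 18.9 CPM, against 31.5 to 60.1 (median 36.9) CPM. Kcnip2, a potassium channel subunit, was at 0.33, 0.786 and 0.441 CPM against 0 to 0.513 and overlapped.

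Of the 19 conduction genes, none was higher in all 3 aortas, 2 were lower and 17 overlapped, against 0.357% of all genes higher and 2.1% lower. Hcn4, the pacemaker channel of the sinus node, was at 2.71 CPM in Ad-sham1, 2.18 in Ad-FAM3A6 and 7.24 in Ad-sham3, and at 0.376 to 5.42 CPM in the other 10 (median 1.67), with 5.42 CPM in Ad-FAM3A3. Shox2, a transcription factor of the sinus node, was at 9.31, 5.08 and 8 CPM and reached 12.3 CPM in Ad-sham5. Isl1 was at 10.8, 3.87 and 13.7 CPM and reached 21.8 CPM in Ad-FAM3A3 and 16 in Ad-sham5. The aortas of the 10 that were highest for these genes were thus Ad-FAM3A3 and Ad-sham5. The same 2 aortas were the highest of all 13 for the list of sympathetic ganglion genes, with summed levels of 1040 and 1015 CPM, and Isl1 and Shox2 are also expressed outside the heart. The part of ganglion transcripts in the conduction genes was not tested. Cntn2 was at 2.77, 1.51 and 4.16 CPM against 0.121 to 3.45 CPM, and Vsnl1 at 6.07, 2.42 and 5.35 CPM against 0 to 7.67 CPM. Tbx18, a factor of the sinus node head and of vessel wall cells, was lower in the 3 at 16.3, 10.03 and 18.5 CPM than in the other 10 at 23.3 to 77.2 (median 29.2) CPM. Gjc1, connexin 45, was lower too, at 15.1, 12.4 and 19 CPM against 20.4 to 46.1 (median 27.5) CPM. Gjd3, another connexin of conduction tissue, had no count in the 3, and Kcne1 had 1.

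**Figure D3:**
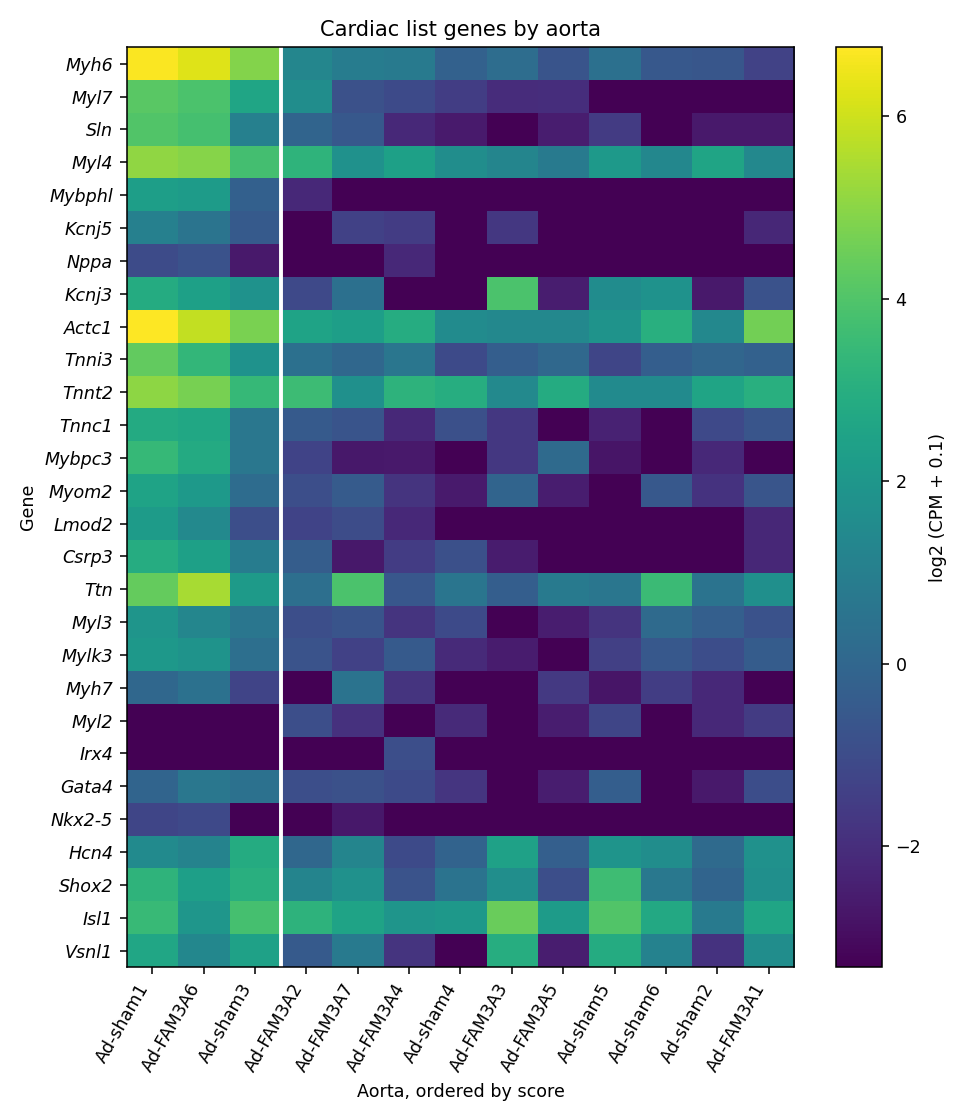
Expression of the genes of the score and of selected cardiac list genes as log2 (CPM + 0.1) in the 13 aortas, ordered by the score, with a white line after the 3 chosen aortas. Some atrial and sarcomere genes, such as Sln and Mybpc3, are bright in the 3. Myl2 and Irx4 are at 0 there, and conduction genes such as Hcn4 are as bright in several of the other 10. The 13 cardiac list genes that were lower in all 3, such as Gja5 and Myom1, are not shown.

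Of the 13 sarcomere genes, 6 were higher in all 3 aortas, 1 was lower and 6 overlapped (of all genes, 0.357% higher and 2.1% lower). The summed level of the list overlapped, at 157 to 292 CPM in the 3 and 168 to 392 CPM in the other 10 (median 240.4). Tnni3, cardiac troponin I, the subunit that holds the thin filament off at low calcium, was at 19.9 CPM in Ad-sham1, 9.97 in Ad-FAM3A6 and 3.46 in Ad-sham3, and at 0.327 to 1.44 CPM in the other 10 (median 0.843). The lowest of the 3 was 2.40 times the highest of the 10, the widest separation of any kept gene after Myh6. Actc1, the cardiac alpha actin of the thin filament, was at 108 CPM in Ad-sham1, 56.3 in Ad-FAM3A6 and 26.5 in Ad-sham3, and at 2.5 to 24.5 CPM in the other 10 (median 4.17). The groups of Actc1 were almost in contact, since Ad-sham3 had 26.5 CPM and Ad-FAM3A1 had 24.5, and Actc1 is close in sequence to the smooth and skeletal muscle actins. Mybpc3, cardiac myosin-binding protein C, was at 10.6 CPM in Ad-sham1, 7.01 in Ad-FAM3A6 and 1.51 in Ad-sham3, and at 0 to 1.03 CPM in the other 10 (median 0.0602).

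Tnnc1, the calcium-binding troponin subunit of cardiac and slow skeletal muscle, was at 7.06, 6.28 and 1.51 CPM against 0 to 0.614 (median 0.287) CPM. Myom2, an M-band protein, was at 5.61, 4.29 and 1.07 CPM against 0 to 0.844 (median 0.309) CPM. Lmod2, which caps and extends thin filaments, was at 4.49, 2.6 and 0.441 CPM against 0 to 0.404 (median 0) CPM. In all 3 genes Ad-sham3 was the lowest of the chosen aortas, and Lmod2 there rested on 7 counts. Tnnt2, cardiac troponin T, was at 33.2, 26 and 10.6 CPM and overlapped because Ad-FAM3A2 had 12 CPM. Ttn, the giant spring of both cardiac and skeletal sarcomeres, was at 20.6, 43.7 and 4.41 CPM and overlapped through Ad-FAM3A7 with 14.9 CPM and Ad-sham6 with 11.6. Myom1, another M-band protein, which every aorta expressed, was lower in the 3 at 50.4, 60.5 and 85 CPM than in the other 10 at 122 to 340.2 (median 189.7) CPM.

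Of 20 Z-disc and costamere genes Csrp3 was higher in all 3 aortas, 3 were lower and 16 overlapped (of all genes, 0.357% higher and 2.1% lower). The summed level of the list was lower in the 3, at 226 to 283 CPM in the 3 and 315 to 971 CPM in the other 10 (median 565). Csrp3, the muscle LIM protein, was at 7.53 CPM in Ad-sham1, 5.14 in Ad-FAM3A6 and 1.76 in Ad-sham3, and at 0 to 0.675 CPM in the other 10 (median 0.0641). Smpx and Trim54 were higher in Ad-sham1 and Ad-FAM3A6 than in each of the other 10 and overlapped through Ad-sham3. Smpx was at 5.28, 2.3 and 0.378 CPM against 0 to 0.693 CPM. Ldb3, Nexn and Hspb7, which every aorta expressed, were lower in the 3. Ldb3, a Z-disc scaffold, was at 49.6, 36 and 50.4 CPM against 57.9 to 303 (median 109) CPM. Nexn, which binds actin filaments, was at 44, 33.7 and 31 CPM against 62 to 175 (median 94.3) CPM. Hspb7, a small heat shock protein of muscle, was between 51.6 and 82.6 CPM in the 3 against 82.6 to 402 (median 194) CPM, so that its groups touched.

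Of the 10 calcium handling genes 0 were higher in all 3 aortas, 2 were lower and 8 overlapped, beside the same 0.357% and 2.1% of all genes. Pln, phospholamban, the inhibitor of the cardiac calcium pump, was at 8.58, 7.98 and 2.14 CPM against 0.787 to 3.57 (median 1.69) CPM and overlapped only through Ad-sham3. Casq2, the cardiac calcium store protein, was at 17, 8.46 and 3.59 CPM against 1.25 to 6.88 (median 1.89) CPM, and Ad-FAM3A1 was the aorta of the 10 above Ad-sham3 by the most. Trdn, triadin, was at 4.56, 2.96 and 0.378 CPM against 0 to 1.6 (median 0.161) CPM. Slc8a1, the sodium-calcium exchanger, was lower at 13.1, 14 and 13 CPM against 20.4 to 33.6 (median 26.3) CPM, and Cacnb2, a subunit of the L-type calcium channel, at 5.28, 5.74 and 6.11 CPM against 8.66 to 24.1 (median 15.1) CPM. Among 12 ion channel and junction genes, 1 was higher in all 3 aortas, 1 was lower and 10 overlapped, again beside 0.357% and 2.1% of all genes. Abcc9, a subunit of the ATP-sensitive potassium channel of vessel walls, was the lower of them, at 154, 114 and 151 CPM against 207 to 407 (median 255) CPM.

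Among 10 cardiac transcription factors, Gata4 was higher in all 3 aortas, Gata6 was lower and 8 overlapped (of all genes, 0.357% higher and 2.1% lower). Gata4 was at 0.858 CPM in Ad-sham1, 1.51 in Ad-FAM3A6 and 1.26 in Ad-sham3, and at 0 to 0.700 CPM in the other 10 (median 0.284). Gata6, a related factor of smooth muscle, was at 26.3, 19.9 and 29.4 CPM against 37.3 to 87.8 (median 61.1) CPM. Nkx2-5, a factor of heart muscle identity, had 5 and 6 counts in Ad-sham1 and Ad-FAM3A6, none in Ad-sham3, and 1 in all of the other 10. Hand1, Hand2 and Tbx20 overlapped, and Tbx20 was highest in Ad-FAM3A3 with 71.4 CPM. No gene of muscle metabolism (11 genes) or of the natriuretic peptide pathway (5 genes) was separate in either direction, beside 0.357% of all genes higher and 2.1% lower. All 11 metabolism genes had a higher mean log2 CPM in the 3, as had 8021 of the 15810 genes kept besides Myh6. The summed level of this list overlapped, at 401 to 1036 CPM in the 3 and 163 to 1433 CPM in the other 10 (median 348). Ckmt2, the mitochondrial creatine kinase of striated muscle, came close, at 13.5, 9.31 and 3.65 CPM against 0 to 3.93 (median 0.249) CPM, with Ad-FAM3A7 the highest of the 10. Mb, myoglobin, did as well, at 12.3, 14.3 and 4.16 CPM against 0 to 4.62 (median 0.429) CPM.

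In the annotation Tnni3 overlaps Dnaaf3, Myl3 overlaps Pth1r, Tnnc1 overlaps Nisch, Mybphl overlaps Gm12522, Myh7 overlaps Mhrt and Myl4 overlaps 4 predicted genes, so that reads of these pairs may be shared. Of the 14 cardiac list genes that were higher in all 3 and had at least 10 counts in each of them, 13 were highest in Ad-sham1 and 13 were lowest of the 3 in Ad-sham3. Gata4 was the exception in both, highest in Ad-FAM3A6 and lowest in Ad-sham1. Per kilobase and relative to Myh6, Mylk3 stood at 6.26%, 7.20% and 6.40% in Ad-sham1, Ad-FAM3A6 and Ad-sham3, and Csrp3 at 18.4%, 16.6% and 15.1%. These ratios differed by at most 1.22 times between the 3 aortas. Kcnj5 (2.77%, 2.57% and 3.08% of Myh6) and Myl7 were as even. Sln stood at 80.0%, 89.3% and 35.0%, Mybphl at 25.4%, 30.7% and 13.6%, and Mybpc3 at 16.7%, 14.6% and 8.32%. For these 3 genes Ad-sham3 had less than the other aortas had for the same Myh6. Gata4 (1.44%, 3.35% and 7.39%) went the other way.

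The 20 genes outside the lists with the widest separation upwards were mostly expressed in all aortas, and the lowest of the 3 was 1.05 to 1.94 times the highest of the 10. Cybrd1, a membrane reductase of iron uptake, was at 3.04 CPM in Ad-sham1, 2.9 in Ad-FAM3A6 and 3.78 in Ad-sham3, and at 0.0605 to 1.49 CPM in the other 10 (median 0.53). Tbc1d4, which controls the insulin-dependent movement of the glucose transporter GLUT4 in muscle and fat, was at 95.3, 87.9 and 85.7 CPM against 31.1 to 65.4 (median 43) CPM. Pdk1, a kinase that inhibits pyruvate dehydrogenase, was at 127, 92.8 and 95.7 CPM against 29.7 to 71.4 (median 53.8) CPM. In these genes the 3 aortas were close to one another, which the choice by the widest separation itself favours. The order of the Myh6 levels of the 3 was not repeated in Cybrd1, which was highest in Ad-sham3. Fndc5, the precursor of irisin in muscle, was at 7.92, 4.35 and 3.72 CPM against 0.985 to 2.88 (median 1.8) CPM. The other genes of this group were Abhd17c, Stard5, Atxn7l1, Armt1, Mapkapk3, Znrf2, Cox18, Phykpl, Umad1, Fam49a, Asb13, Txlng and, among transcripts of little-known function, A530041M06Rik, Gm26613, Gm37844 and A930005H10Rik. These 4 transcripts each overlap another gene, as do Tbc1d4, Stard5, Atxn7l1, Phykpl, Umad1, Fam49a, Asb13 and Txlng, so that the counts of all 12 are uncertain.

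Outside the lists, 610 kept genes were lower in all 3 aortas and 47 were higher. These were most of the 628 lower (3.97%) and 52 higher (0.329%) among all 15810 genes kept besides Myh6. Klhl30, a kelch-like protein, was at 9.57 CPM in Ad-sham1, 6.71 in Ad-FAM3A6 and 9.64 in Ad-sham3, and at 21.9 to 44.4 CPM in the other 10 (median 27.9). Mtus2 was at 27.1, 27.9 and 32.4 CPM against 66.2 to 166 (median 92.4) CPM, and Specc1 at 17.4, 16.3 and 17.6 CPM against 34 to 56.7 (median 39.2) CPM. Itga8, the integrin alpha 8 chain of smooth muscle and myofibroblasts, was at 464, 313 and 563 CPM against 1034 to 2745 (median 1485) CPM. In each of them the highest of the 3 lay below the lowest of the 10. Chmp4c, Gm4524, Slc6a7, Itih2 and Nrk were also among the 10 genes with the widest separation downwards. Mtus2, Itga8, Chmp4c and Gm4524 overlap other genes.

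All 8 smooth muscle genes had a lower mean log2 CPM in the 3, and 3 of them, Acta2, Tagln and Actg2, did not overlap. Of all genes kept, 7789 of 15810 had a lower mean and 3.97% were lower in all 3. The summed level of the list was 2357 to 5520.2 CPM in the 3 and 5806 to 19033 CPM in the other 10 (median 11267). Myh11, the smooth muscle myosin heavy chain, was at 535 CPM in Ad-sham1, 488 in Ad-FAM3A6 and 1515 in Ad-sham3, and at 1253 to 4732 CPM in the other 10 (median 2250.1). Acta2, smooth muscle alpha actin, was at 1869 CPM in Ad-sham1, 1352 in Ad-FAM3A6 and 2759 in Ad-sham3, and at 3318 to 10192 CPM in the other 10 (median 6436). Both defining markers of the aortic media were thus high in every aorta, and Myh11 overlapped through Ad-FAM3A7 and Ad-sham3. Tagln overlaps Pcsk7 in the annotation and its counts are uncertain. The part of the smooth muscle content in the genes that were lower in the 3 was not tested.

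Of 7 genes of the epicardium and mesothelium, the lining of the heart and of body cavities, 6 had a higher mean log2 CPM in the 3 aortas, and Lrrn4, a membrane protein of mesothelium, did not overlap. Of the 15810 genes kept, 8021 had a higher mean and 0.329% were higher in all 3. Upk3b, a mesothelial membrane protein, was at 17.2 CPM in Ad-sham1, 4.77 in Ad-FAM3A6 and 68.8 in Ad-sham3, and at 0.0641 to 12.1 CPM in the other 10 (median 0.783). Msln, mesothelin, was at 8.78, 2.42 and 27.1 CPM against 0 to 6.58 (median 0.336) CPM, and Wt1, a transcription factor of both linings, at 2.57, 1.63 and 7.24 CPM against 0.0641 to 1.8 (median 0.302) CPM. Upk3b, Msln and Wt1 overlapped through Ad-FAM3A1, which had 12.1 CPM of Upk3b and 6.58 of Msln but only 0.299 CPM of Myh6, the lowest of all 13 aortas. The list summed to 46.8 CPM in Ad-sham1, 15.9 in Ad-FAM3A6 and 155 in Ad-sham3, and to 3.87 to 32.3 CPM in the other 10. The order of the 3 was not that of Myh6, since Ad-sham3 was highest. The part of mesothelial transcripts in the separation of the 3 aortas was not tested.

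The remaining lists overlapped between the groups in their summed levels. Beside the counts of means below, 8021 of the 15810 genes kept besides Myh6 had a higher mean log2 CPM in the 3. Skeletal muscle genes summed to 52.2 to 142 CPM in the 3 and 31.7 to 241 CPM in the other 10 (median 71.2), and 8 of the 18 with a count had a higher mean log2 CPM in the 3. Myh4, a fast skeletal myosin, was at 0.528, 29.5 and 2.33 CPM in the 3 and reached 44.1 CPM in Ad-sham6, so that Ad-sham1, the aorta with the most Myh6, held little of it. Sympathetic ganglion genes summed to 299 to 794 CPM in the 3 and 4.16 to 1040.1 CPM in the other 10 (median 128), with all 7 genes higher in mean log2 CPM. B-cell genes, again with all 7 means higher, summed to 171 CPM in Ad-sham1, 10576 in Ad-FAM3A6 and 113 in Ad-sham3, and to 26.9 to 3187 CPM in the other 10. Kidney genes, with 3 of 6 means higher, summed to 4.03 CPM in Ad-sham1, 2.84 in Ad-FAM3A6 and 217 in Ad-sham3, and to 0.462 to 658 CPM in the other 10. Thus Ad-FAM3A6 was high in B-cell genes and Ad-sham3 in kidney and ganglion genes, whereas Ad-sham1 had no count of the kidney gene Umod. Brown fat genes summed to 838 to 3618 CPM in the 3 and 699 to 3175 CPM in the other 10 (median 1103), with 6 of 7 means higher. White fat genes summed to 3485 to 10013 CPM in the 3 and 2444 to 12957 CPM in the other 10 (median 4397), with 6 of 6 means higher. Endothelial genes summed to 1063 to 1259.7 CPM in the 3 and 1071 to 2388 CPM in the other 10 (median 1552). Of the 7 genes, Pecam1, a membrane protein of endothelium, was lower in all 3 and 6 overlapped, where 3.97% of all genes kept were lower.

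**Figure D4:**
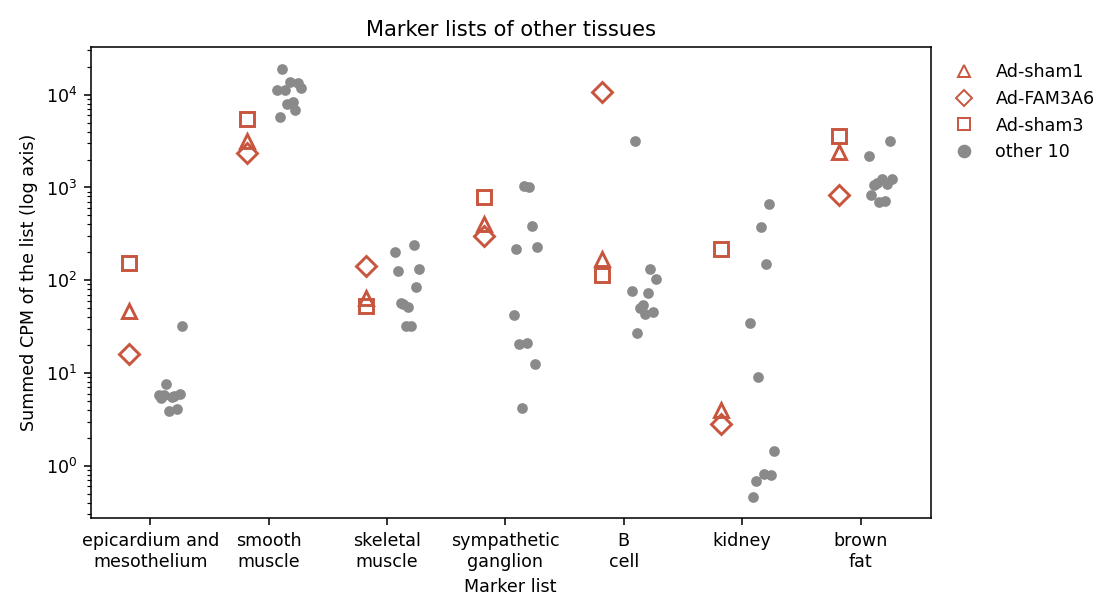
Summed CPM (log axis) of 7 marker lists, with the 3 chosen aortas as open red symbols and the other 10 as grey circles. Of these 7 lists, the 3 lie below all others for smooth muscle, and for epicardium and mesothelium 1 grey circle, Ad-FAM3A1 at 32.3 CPM, lies among them.

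Lung and airway genes summed to 2.52 to 7.13 CPM in the 3 and 1.5 to 26.1 CPM in the other 10 (median 2.65), oesophagus genes to 0.786 to 3.5 CPM in the 3 and 0.736 to 4.01 CPM in the other 10 (median 1.68), and thyroid and parathyroid genes, mostly Tshr, which fat also expresses, to 17.3 to 47.4 CPM in the 3 and 11.4 to 40.1 CPM in the other 10 (median 19.2), with Ad-sham1 the highest of all 13. Thymus genes summed to 1.51 to 80.4 CPM in the 3 and 1.33 to 183 CPM in the other 10 (median 4.7), with Ad-sham4 the highest. Foxn1 of thymic epithelium and Pth of the parathyroid had no count in any aorta. Liver genes summed to 0.726 to 32.4 CPM in the 3 and 1.1 to 384 CPM in the other 10 (median 14.7). Means were lower in the 3 for 5 of 5 liver genes and for 7789 of the 15810 genes kept besides Myh6. Hox genes, whose paralog number follows position along the body axis, overlapped apart from Hoxa2, and 2.1% of all genes with a count were lower in all 3. Hoxa2 was at 2.24, 1.45 and 1.57 CPM against 2.71 to 6.39 (median 4.02) CPM. The summed level of Hox paralogs 6 to 8 was 44.7 to 79.2 CPM in the 3 and 27.9 to 120.3 CPM in the other 10 (median 79.2). That of paralogs 9 to 13 was 16 to 28.8 CPM in the 3 and 14.1 to 77.5 CPM in the other 10 (median 24.2), and that of paralogs 1 to 5 was 31.2 to 104 CPM in the 3 and 54.3 to 105 CPM in the other 10 (median 71.9).

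The virus label was the comparison open to a test. The 3 aortas came from both groups, 2 of 6 Ad-sham and 1 of 7 Ad-FAM3A aortas. The vector gene Fam3a itself (ENSMUSG00000031399) was at 17.9 to 30.3 CPM in the 6 aortas labelled Ad-sham (median 24.9) and at 18.5 to 29.7 CPM in the 7 labelled Ad-FAM3A (median 23), with a log2 fold change of -0.028 ± 0.16 (SE, edgeR, adjusted p = 0.97). The transcript did not set the groups apart, and each direction between them rests on the labels. The 6 Ad-sham aortas had a mean of 22.5 CPM of Myh6 with an SD of 40.9, and the 7 Ad-FAM3A aortas a mean of 12.2 with an SD of 28.9, so that the spread within each group was larger than its mean. The medians were 0.991 and 1.63 CPM. The log2 fold change of Myh6, Ad-FAM3A against Ad-sham, was -0.87 ± 1.46 (SE) with an adjusted p of 0.90 by edgeR's quasi-likelihood test over all genes kept. A two-sided exact permutation test over all assignments of the 13 aortas to 6 and 7 gave p = 0.72 for Myh6, p = 0.90 for Myl7, p = 0.86 for Sln and p = 0.97 for Tnni3. The smallest p this design allows is 0.00058. Without Ad-sham1 the fold change of Myh6 was 0.91, and without Ad-FAM3A6 it was -4.14, so that its direction changed without Ad-sham1 and its size without Ad-FAM3A6.

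**Figure D5:**
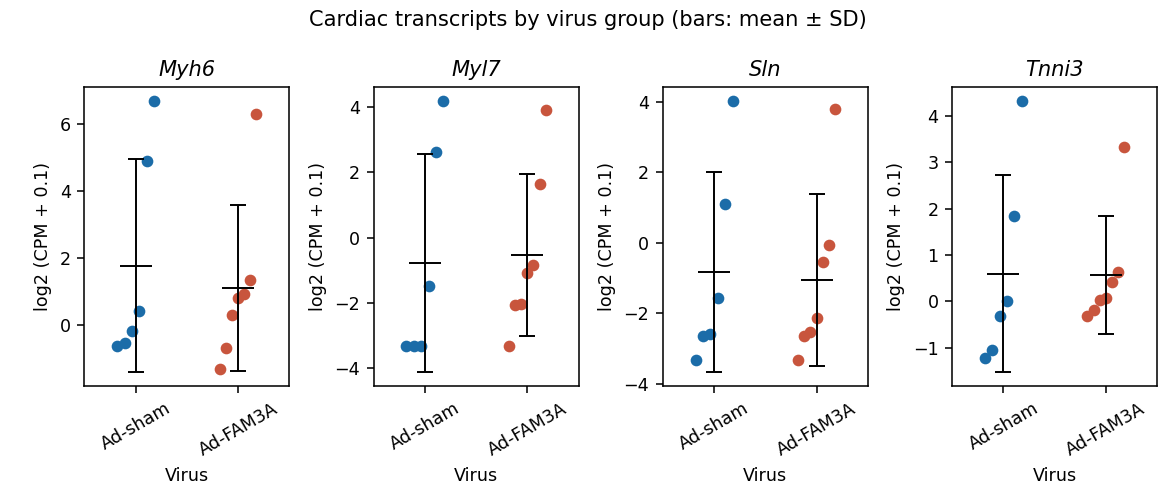
Myh6, Myl7, Sln and Tnni3 as log2 (CPM + 0.1) in the 6 Ad-sham (blue) and 7 Ad-FAM3A (red) aortas, with the mean and SD as black bars. In each gene 1 or more aortas of each group lie far above the rest, and the means differ by less than the SD.

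No cardiac list gene was called between the virus groups. At an adjusted p under 0.05, 0 of 15811 genes were called (0%), and 0 of the 89 cardiac genes. At an unadjusted p under 0.05, 934 genes passed (5.91%), 463 of them lower in Ad-FAM3A (2.93%), and 4 of the 89 cardiac genes did: Tbx5, Cacna1d, Myoz2 and Kcnj11. Kcnj11, the pore of the ATP-sensitive potassium channel, had a log2 fold change of -1.76 ± 0.42 (SE), and Tbx5 one of -1.09 ± 0.50 (SE). Myoz2, a Z-disc protein, had 1.14 ± 0.46 (SE) and Cacna1d, a calcium channel of pacemaker cells, 0.68 ± 0.23 (SE). All 4 had an adjusted p of 0.81, and none of them was among the genes higher in the 3 aortas. DESeq2 called 10 genes and limma-voom 0, with no cardiac list gene among them, and at an unadjusted p under 0.05 they gave 1501 and 702 genes. For 3 of the cardiac genes higher in the 3 aortas that passed the filter, the log2 fold changes between the virus groups were -0.89 ± 0.99 (SE) for Tnni3, -0.41 ± 0.77 (SE) for Myl4 and -0.76 ± 0.98 (SE) for Actc1. Each was smaller in size than its standard error.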

How the data were processed

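Aortic tissue of 13 mice was profiled by RNA sequencing, 1 library per animal. The part of the aorta that gave the RNA is not given in the sources used here. The deposited values are raw read counts per gene, which the authors made by aligning reads to GRCm38 with Hisat2 and counting them with FeatureCounts. The annotation release, strand setting and treatment of reads that map to several genes are not given in the sources used here. The labels and the methods name different extraction and library kits, so none is stated. Deposited FPKM group means and the authors' own fold changes and p-values were not used. All columns used were matched to labels, with 0 left over.

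CPM were computed from the counts with TMM factors in edgeR 4.0.16 on R 4.3.3, and log2 CPM with a prior count of 2. Groups came from the labels. The score rule (mean log2 CPM of Myh6 and Myl7, 3 highest aortas) was applied to these values. Myh6 and Myl7 were left out of the comparison across genes. "Higher" or "lower" means that the 3 aortas did not overlap with the other 10. The label was tested with edgeR's quasi-likelihood test on the genes that filterByExpr kept, with Benjamini-Hochberg adjustment, and single genes with an exact permutation test. DESeq2 1.42.0 and limma 3.58.1 were alternatives, as were other scalings, filters, prior counts, the replicate block and leaving out each aorta. The scripts were tested on simulated data.

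Text names genes of the cardiac lists and other tissue lists, and, outside the lists, the 20 genes with the widest separation upwards and the 10 downwards. A few of them are counted but not reported by name here. The members, the rule and all lists were chosen with earlier results of these data known. RefSeq promoter windows matched by symbol. Per-length levels used the gene lengths in the deposited table. Totals of 14481179 to 19797407 counts set the precision, and intervals cover counting error only.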

Additional observations from a re-analysis of the deposited data

Results flagged for a closer look

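In 16 genes, the values of each virus group, 32 groups of values in all, were searched for an aorta that stands apart by Dixon's criterion, which chance meets in about 1 of 20 groups. It was met 3 times, each time by Ad-FAM3A6 among the 7 Ad-FAM3A aortas. Myh6 was at 6.28 log2 CPM in Ad-FAM3A6, and the nearest of the others, Ad-FAM3A2, was at 1.33. Mybphl was at 2.22 log2 CPM against -2.02 in Ad-FAM3A2, with all remaining Ad-FAM3A aortas at 0 counts. Tnni3 was at 3.34 log2 CPM against 0.65 in the nearest other aorta. Ad-FAM3A6 is the only Ad-FAM3A aorta among the 3 chosen for high Myh6 and Myl7, and all 16 genes were taken for being high in those 3, so that the 3 values follow from the choice and are not read against the chance share. No Ad-sham aorta met the criterion in these genes, where 2 aortas, Ad-sham1 and Ad-sham3, were high.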

How the results depend on the processing

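The 3 aortas were the same under every scaling, prior count and single-gene score tried. The count of genes higher in all 3, 52, became 82 with DESeq2 size factors and 110 without a filter, and 56 to 459 when 1 aorta was left out. The count lower, 628, ranged from 634 to 1507 when 1 aorta was left out. The 4 cardiac genes higher became 15 without a filter, 2 with at least 10 counts required in every aorta, and 4 to 15 when 1 aorta was left out. Between the virus groups, DESeq2 called 10 genes and leaving out 1 aorta gave 0 to 0 calls. The log2 fold changes between the virus groups changed sign in some settings: with limma-voom (0.11) and with the replicate block (0.28) for Tnni3. When 1 aorta was left out, they ranged from -4.14 to 0.91 for Myh6, -2.10 to 0.98 for Tnni3, -1.37 to 0.45 for Myl4, -1.69 to 0.77 for Actc1, -0.55 to 1.13 for Myl7 and -1.02 to 0.71 for Sln, with the low end without Ad-FAM3A6 and the high end without Ad-sham1. With the replicate number as a block, 0 genes and 0 cardiac genes were called. Ad-FAM3A7 has no partner and adds nothing to that fit. Same-numbered aortas gave a mixed result: over 6 pairs the correlation of deviations was -0.33 to 0.45. It was over 0.1 in 3 pairs, and 1 pair had an aorta that correlated best with its own number. The cause of these changes was not tested, except that leaving out an aorta of the 3 or of the 10 eases the condition by construction. Depth limits genes with a few counts in the 3, such as Nppa, Nkx2-5 and Lmod2.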
